A study of Homo sapiens with 4 samples.

Results

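Insulin lowers blood glucose in part by acting on the liver. Its receptor phosphorylates docking proteins of the IRS family, which bring phosphoinositide 3-kinase (PI3K) to the membrane, and the lipid product of PI3K lets PDK1 and mTORC2 switch on the kinase AKT. AKT releases mTORC1 from the TSC complex, inhibits glycogen synthase kinase 3 and keeps FOXO transcription factors out of the nucleus, and in hepatocytes FOXO1 otherwise drives the genes of glucose production. The 34 genes described here are a chosen panel of this pathway, from the insulin receptor to FOXO factors, gluconeogenic enzymes and inhibitors of the signal. All 34 were found by symbol among the 62655 gene IDs of the count table, and 32 had enough reads to be tested.

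Hep G2 cells, a long-established human liver cancer line often used as a stand-in for hepatocytes, were the source of every library. All cells were plated at 150000 per ml, received medium rich in oleic acid 24 h later, and were transfected after a further 24 h with HiPerFect. The mimic group (2 libraries) received a synthetic mimic of LysTTT-5'tRF, which is the 5' piece of a lysine tRNA (anticodon TTT), and the control group (2 libraries) a negative control oligonucleotide, and both were harvested 24 h after transfection. Both groups were thus steatotic and transfected cells of a single line, and no group without oleic acid or transfection was analysed here. The labels name no addition of insulin, so the values describe transcript levels and not the response to the hormone.

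Reads assigned to genes ranged from 15430539 to 18961222 per library. All 10 hepatocyte markers examined were at 1 CPM or more (counts per 1000000, after TMM scaling), and their summed level was 49790 and 49430 CPM in mimic libraries 1 and 2 and 48500 and 46580 CPM in control libraries 1 and 2. Markers of other liver cells were absent or scarce in part: PTPRC and MARCO of leukocytes, KDR of endothelium, COL1A2 and DCN of stellate cells and KRT7 of bile ducts had 0 reads, while LYZ, KRT19, EPCAM and SOX9 were abundant. Of the endothelial markers 2 of 4 reached 1 CPM or more, with summed levels of 9.314 to 11.5 CPM per library. Of the stellate cell and fibroblast markers 3 of 6 did, with summed levels of 30.26 to 35.35 CPM. The hepatocyte marker ALB rose (log2 fold change 0.23, Benjamini-Hochberg adjusted p = 0.0109 in edgeR) and the 9 others did not pass. At an unadjusted p under 0.05 in edgeR, 5 of the 10 were higher and none lower, beside 9.43% of all tested genes in either direction. Of the 10, 8 had log2 fold changes above 0 and 2 below. The part of this shift in the results below was not tested, and in bulk RNA fewer cells of a kind and less RNA per cell cannot be told apart. A gene is said here to have risen or fallen where its Benjamini-Hochberg adjusted p in edgeR's quasi-likelihood fit was below 0.05, which held for 50 of 14464 tested genes (0.346%). Whether a group's 2 libraries stem from different cultures is not stated, so p-values reflect the spread between these libraries alone, and that spread may be technical.

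Of the 32 tested genes of the panel, 1 rose with the mimic, where 0.277% of all tested genes rose. None fell in edgeR, where 0.0691% of all tested genes fell, and 31 did not pass the test. The gene that rose was PIK3AP1, an adaptor that binds PI3K. The panel was chosen with earlier results of these data known, so its count is no test against the share over all genes. Before adjustment, 2 genes had a p below 0.05, PIK3AP1 above and the adaptor GRB10 below the control, and the share over all tested genes was 9.43%. DESeq2 gave an adjusted p to only 5210 of the 14464 genes, PIK3AP1 not among them, and called none of the 32. Genes without an adjusted p were not judged by DESeq2. In limma voom PIK3AP1 was called. The median log2 fold change of the 32 genes was 0.02, beside 0.00109 over all genes tested. With scaling to library totals both medians were lower, at -0.00376 and -0.0183. The median size of the change, without its sign, was 0.06 for the panel and 0.10 for all genes. The panel was also more abundant than the average gene, with a median level of 66.6 CPM against 18.8 CPM. The groups did not overlap in 15 of the 32 genes, 8 higher and 7 lower with the mimic, while they did not overlap in 39.1% of all genes tested.

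**Figure D1:**
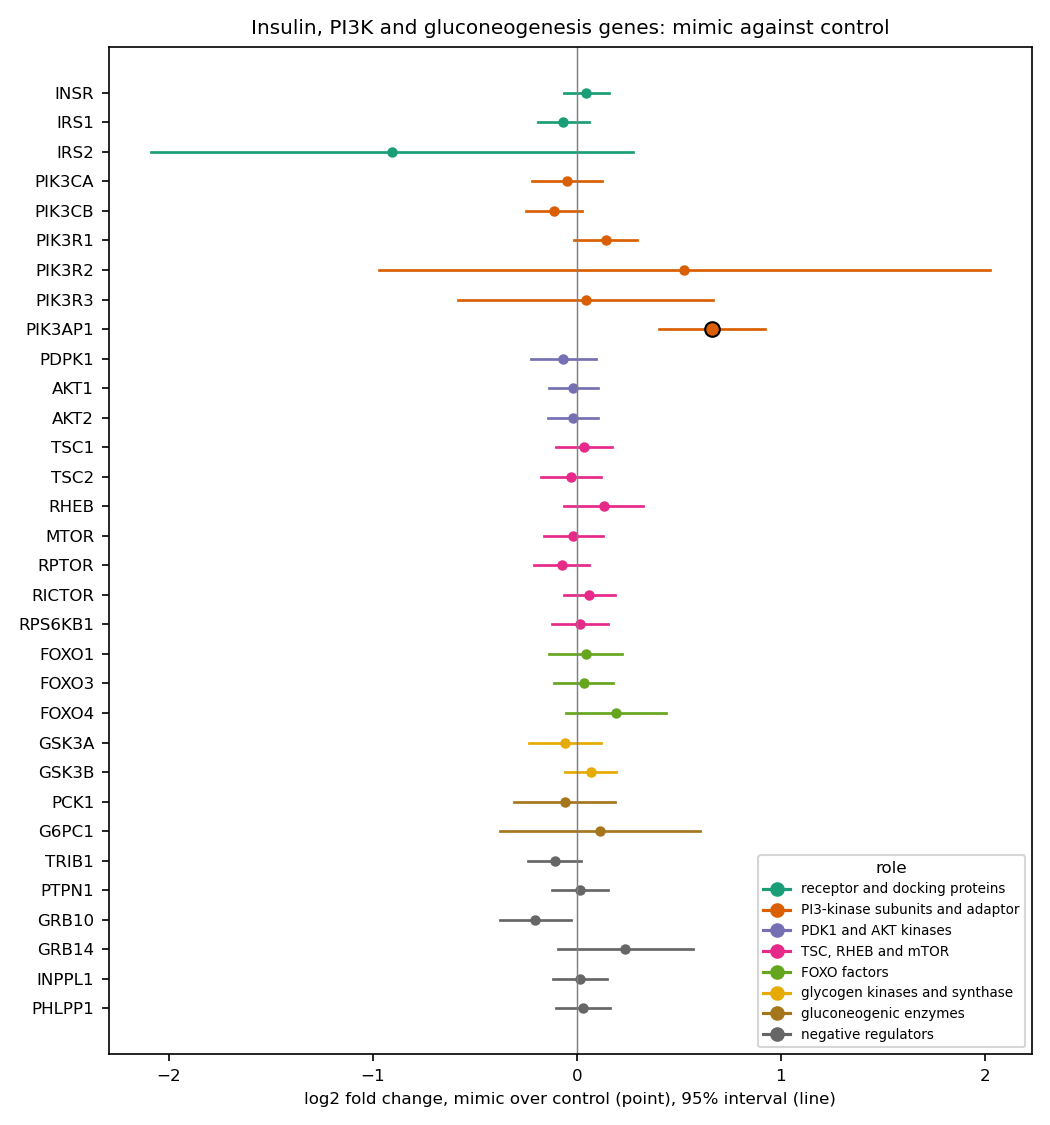
Log2 fold change of the mimic over the control (points) with 95% interval (lines) for the 32 tested genes, coloured by role, from 2 libraries per group. PIK3AP1, outlined in black at 0.66, is the gene past the adjusted threshold, and most other intervals are narrow and span 0, while those of the scarce IRS2 and PIK3R2 are wide.

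For 23 of the 32 genes the 95% interval of the change lay wholly within 1.25-fold in either direction, as it did for 43.3% of all tested genes. The other 9 were PIK3AP1 itself and 8 whose intervals reached past that size. They were IRS2, PIK3R2, PIK3R3 and G6PC1, each with at most 94 reads in any library, together with RHEB, FOXO4, GRB10 and GRB14. A larger change in these 8 cannot be set aside from these libraries. These intervals are taken gene by gene, with no correction for their number.

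No gene of the receptor and its docking proteins passed. INSR, the receptor tyrosine kinase itself, stood at 155.3 and 158.7 CPM in mimic libraries 1 and 2 and at 150.4 and 153.7 CPM in control libraries 1 and 2. Both mimic libraries lay above both controls, but the distance was small, at a log2 fold change of 0.05 (95% interval -0.06 to 0.16). IRS1, a docking protein that the receptor phosphorylates, was at 98.0 and 95.7 CPM with the mimic and at 101.7 and 101.0 CPM in the control, a log2 fold change of -0.07 (95% interval -0.19 to 0.06).

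IRS2, a main docking protein of normal liver that is itself transcribed under FOXO1, had very few assigned reads in these libraries. It had 9 and 8 reads in mimic libraries 1 and 2 and 19 and 12 in control libraries 1 and 2, which amounts to a mean ± SD of 0.507 ± 0.115 CPM (mimic, n = 2) and 0.937 ± 0.272 CPM (control, n = 2). Both mimic libraries were lower than both controls. The log2 fold change of -0.91 (95% interval -2.09 to 0.28) did not pass (Benjamini-Hochberg adjusted p = 0.658 in edgeR), so its direction was not resolved at this depth. Per kb of exon, IRS2 made up 0.542% to 1.34% of the summed IRS1 and IRS2 level in the 4 libraries.

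The IRS2 start region is shown because this gene is both a docking protein and a known FOXO target, and it was among 4 genes of the panel in which a searched motif was found. The searched letters were GTAAACA, the consensus of forkhead factors such as FOXO, CAAAACA, the core of the insulin response element of hepatic promoters, and TGACGTCA, the cAMP response element, each on both strands. The search covered the 250 bases before each RefSeq transcript start (GRCh38.p14). The windows reported here covered 31 genes of the panel, with 53 start sites in all. PCK1 and GYS2 had no window to search, and TRIB1 was left out of these counts, so nothing is said of motifs there. Over the 35116 such windows searched, in and outside the panel, the motifs were present in 2.98%, 4.30% and 1.65%. The insulin response element core was present in IRS2, RPS6KB1 and 1 of the start sites of GRB14, and the forkhead consensus in PIK3CA, with 1 match each and no overlap between motifs. The other 27 genes held none of the 3 strings, which says only that these letters are not in those windows. Capitals mark the motif, read here on the opposite strand as TGTTTTG in IRS2, at chr13:109786584-109786833 on the minus strand, and as TGTTTAC in PIK3CA, at chr3:179148107-179148356 on the plus strand, with no claim that either is bound.
IRS2: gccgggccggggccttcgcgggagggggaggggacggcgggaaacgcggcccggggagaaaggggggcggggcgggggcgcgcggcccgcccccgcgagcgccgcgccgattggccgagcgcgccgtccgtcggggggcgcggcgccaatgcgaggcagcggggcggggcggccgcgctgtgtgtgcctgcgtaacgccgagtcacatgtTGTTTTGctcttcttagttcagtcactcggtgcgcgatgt
PIK3CA: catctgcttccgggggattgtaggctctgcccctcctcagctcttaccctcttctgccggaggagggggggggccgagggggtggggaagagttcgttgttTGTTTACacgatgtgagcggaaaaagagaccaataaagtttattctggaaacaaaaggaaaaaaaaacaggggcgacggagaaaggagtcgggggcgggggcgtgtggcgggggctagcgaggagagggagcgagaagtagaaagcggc

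PIK3AP1, also called BCAP, is an adaptor best known from B cells, where its phosphorylated tyrosines bind the regulatory subunit of PI3K and so bring the kinase to the membrane. It was at 26.3 and 22.7 CPM in mimic libraries 1 and 2 and at 16.8 and 13.9 CPM in control libraries 1 and 2, from 403, 426, 283 and 224 reads. Each mimic library lay above each control library, and libraries within a group differed by less than the groups did. The level rose from 15.4 ± 2.06 to 24.5 ± 2.58 CPM (mean ± SD, 2 libraries each). The fitted change was 1.58-fold, a log2 fold change of 0.66 (SE 0.12, 95% interval 0.40 to 0.92), with a Benjamini-Hochberg adjusted p = 0.0145 in edgeR. Over all tested genes, 5.77% differed by at least 1.5-fold in either direction, most of them without passing the test.

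The PIK3AP1 call was lost without mimic library 1 (log2 fold change 0.56, Benjamini-Hochberg adjusted p = 0.106 in edgeR) and without control library 2 (0.54, adjusted p = 0.0835), the libraries at the 2 ends of its range, and when genes of low count were kept in (0.66, adjusted p = 0.754), where no gene in the table was called. DESeq2 gave it a log2 fold change of 0.67 and an unadjusted p of 8.97e-05 but, through its own filter on mean count, no adjusted p.

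PIK3AP1 (ENSG00000155629) lies on chromosome 10 from 96593312 to 96720514 of GRCh38, on the minus strand, with no exon overlap with another gene in GENCODE 29. Its start region is shown because it is the gene of the panel that rose. The 250 bases before the RefSeq start, at chr10:96720515-96720764 on the minus strand of GRCh38.p14, held none of the 3 motifs, so no letters are in capitals.
PIK3AP1: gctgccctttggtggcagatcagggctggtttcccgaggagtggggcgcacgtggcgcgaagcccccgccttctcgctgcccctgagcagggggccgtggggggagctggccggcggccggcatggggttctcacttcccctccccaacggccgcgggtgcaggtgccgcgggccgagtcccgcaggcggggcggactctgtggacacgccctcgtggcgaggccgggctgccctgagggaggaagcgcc

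**Figure D2:**
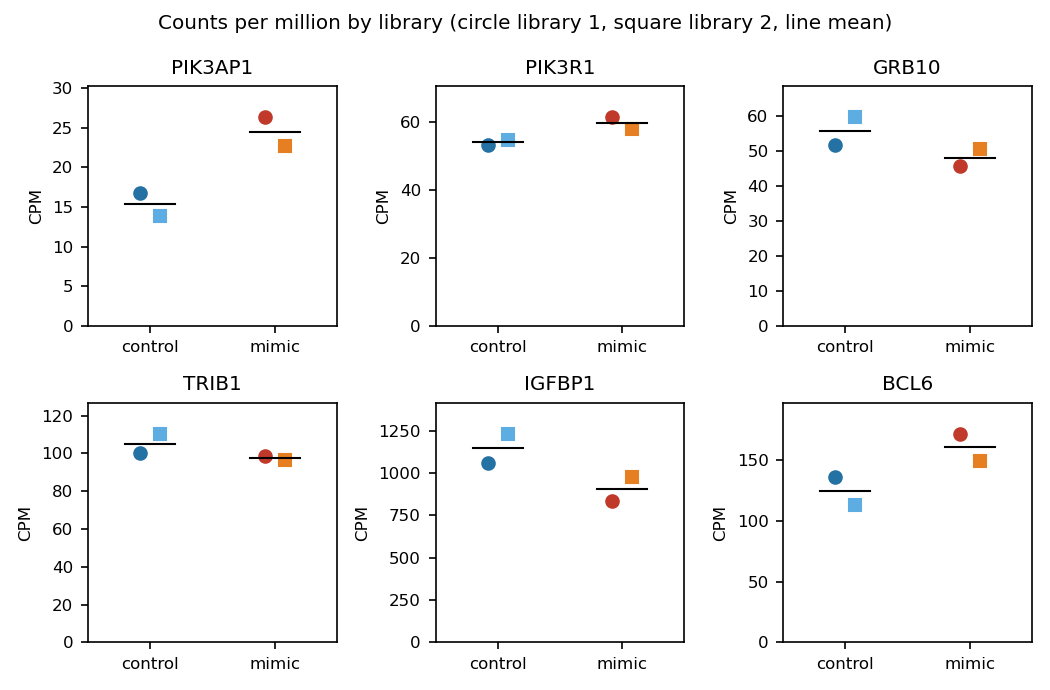
CPM of 6 genes in each library, with axes from 0, circles for library 1, squares for library 2 and a line at the group mean. PIK3AP1 and BCL6 were higher and IGFBP1 lower in both mimic libraries and passed the test, whereas PIK3R1, GRB10 and TRIB1 did not overlap between groups and did not pass.

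The subunits of PI3K itself did not pass the test. PIK3R1 encodes p85alpha, the regulatory subunit that docks on IRS proteins, and stood at 61.3 and 57.9 CPM with the mimic and at 53.3 and 54.6 CPM in the control (log2 fold change 0.14, 95% interval -0.01 to 0.29). The groups were separate, yet the interval included 0. PIK3CB, the catalytic subunit p110beta, was at 74.1 and 74.0 CPM with the mimic and at 81.8 and 78.2 CPM in the control (-0.11, -0.25 to 0.02), and so was lower in both mimic libraries without passing. PIK3CA, the catalytic subunit p110alpha through which insulin mainly acts in liver, had a log2 fold change of -0.05 (-0.22 to 0.12). An opposite-strand gene, KCNMB3, covers 35.8% of the PIK3CA exon sequence, and how the counting treated strand is not known here.

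Shares of the PI3K subunits were taken from levels per kb of exon, as counted here. PIK3R1 held 89.6% to 93.6% of the summed level of PIK3R1, PIK3R2 and PIK3R3 in the 4 libraries, PIK3R3 (p55gamma) 5.53% to 7.27% and PIK3R2 (p85beta) 0.253% to 3.10%. The PIK3R2 count is uncertain, since 87.2% of its exon sequence in GENCODE 29 is shared with an overlapping gene on the same strand, itself listed at 0 reads. HTSeq by default leaves reads that fall in more than 1 gene unassigned. For PIK3R3, 17.4% of exon sequence is shared in this way, so the PIK3R1 share may be too high. PIK3R2 had 8 and 13 reads with the mimic and 13 and 1 in the control, so its log2 fold change of 0.53 (95% interval -0.97 to 2.03) resolved nothing. Among catalytic subunits PIK3CB held 43.4% to 46.5% of the summed level, PIK3CD (p110delta), which is better known from leukocytes, 33.1% to 36.7% and PIK3CA 19.4% to 20.4%, with PIK3CG at 0.

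None of the kinases PDK1, AKT1 and AKT2 passed, and the median size of their change was 0.02 on the log2 fold change scale. AKT1 was at 117.7 and 121.2 CPM with the mimic and at 123.7 and 118.4 CPM in the control, and the groups overlapped (log2 fold change -0.02, 95% interval -0.14 to 0.10). AKT2, the isoform most tied to glucose control in liver and fat, was at 110.9 and 109.9 CPM with the mimic and at 114.5 and 109.3 CPM in the control (-0.02, -0.14 to 0.10). PDPK1, the gene of PDK1, had a log2 fold change of -0.07 (-0.23 to 0.10). It has near-identical pseudogene copies, so reads aligning to several places may be missing from its count.

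None of the 7 genes from TSC to S6 kinase passed, and their median log2 fold change was 0.01. TSC1 and TSC2, which together restrain RHEB, stood at 0.03 (95% interval -0.10 to 0.17) and -0.03 (-0.18 to 0.12). RHEB, the small GTPase that turns on mTORC1, was at 35.1 and 32.1 CPM with the mimic and at 30.9 and 30.2 CPM in the control, with separate groups and a log2 fold change of 0.13 (-0.06 to 0.32). MTOR, the kinase of both complexes, varied more within groups than between them, at 108.4 and 96.7 CPM with the mimic and at 110.4 and 96.7 CPM in the control. RPTOR, the scaffold of mTORC1, was at -0.07, RICTOR, that of mTORC2, at 0.06, and RPS6KB1, the S6 kinase that mTORC1 activates, at 0.01 on the log2 fold change scale, which was -0.01 for RPS6KB1 with scaling to library totals, where the median of all genes was -0.0183.

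The 3 FOXO genes all had log2 fold changes above 0 and none passed. FOXO1, the main FOXO of hepatic glucose production, was at 39.4 and 36.9 CPM with the mimic and at 36.4 and 37.5 CPM in the control, and the groups overlapped (0.04, 95% interval -0.13 to 0.22). FOXO3 was at 0.03 (-0.11 to 0.18), and part of its reads may be lost to a near-identical pseudogene. FOXO4, which lies on the X chromosome, was at 22.6 and 20.8 CPM with the mimic and at 17.4 and 20.5 CPM in the control, where mimic library 2 and control library 2 almost met (0.19, -0.05 to 0.43). Per kb of exon FOXO3 held 39.9% to 44.3% of the FOXO level, FOXO1 28.5% to 29.9% and FOXO4 25.8% to 30.6%, so FOXO1 and FOXO4 did not differ beyond their spread over libraries.

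Glycogen synthase kinase 3, which AKT inhibits, was present in both forms. GSK3B was at 108.0 and 103.8 CPM with the mimic and at 103.8 and 98.2 CPM in the control (log2 fold change 0.07, 95% interval -0.06 to 0.19), and mimic library 2 and control library 1 were equal to within a small part of 1 CPM. GSK3A was at 36.5 and 37.6 CPM with the mimic and at 38.3 and 38.9 CPM in the control (-0.06, -0.23 to 0.12). GYS2, the glycogen synthase of liver, had 0 reads in all 4 libraries, which allows up to 3 reads, or between 0.160 and 0.196 CPM, per library for counting error alone. In GENCODE 29, 87.5% of its exon sequence is shared with an overlapping gene on the same strand that was also listed at 0, so reads of GYS2 may have been left unassigned. GYS1, the form of muscle and most other tissues, stood at 29.8 and 36.8 CPM with the mimic and at 32.6 and 40.2 CPM in the control.

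Enzymes of glucose production were at low levels and did not pass the test. PCK1, the cytosolic phosphoenolpyruvate carboxykinase that commits carbon to gluconeogenesis, was at 22.0 and 18.8 CPM with the mimic and at 22.8 and 19.4 CPM in the control. Libraries within a group thus differed more than the group means did (log2 fold change -0.06, 95% interval -0.31 to 0.19). G6PC1, the catalytic subunit of glucose-6-phosphatase, which releases free glucose, was at 4.18 and 5.00 CPM with the mimic and at 4.52 and 4.04 CPM in the control, with overlapping groups and a wide interval (0.11, -0.38 to 0.60). FBP1, fructose-1,6-bisphosphatase, had 1 and 2 reads in mimic libraries 1 and 2 and 4 in each control library, too few to be tested.

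In both enzyme pairs the paralog outside the panel was the more abundant. Per kb of exon PCK1 held 9.88% to 12.5% of the summed PCK1 and PCK2 level, the rest being the mitochondrial enzyme PCK2. G6PC1 held 13.9% to 18.7% of the level summed with G6PC3, the broadly expressed form, and G6PC2 was at 0.

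None of the 6 inhibitors of the signal passed in edgeR or limma voom, and DESeq2 called none that it gave an adjusted p. Only GRB10 had an unadjusted p under 0.05 in edgeR. GRB10, an adaptor that binds the active insulin receptor and is stabilised by mTORC1, was at 45.7 and 50.7 CPM with the mimic and at 51.7 and 59.7 CPM in the control. The groups were separate, though mimic library 2 and control library 1 lay closer together than the 2 libraries of either group. Its log2 fold change was -0.20 (SE 0.08, 95% interval -0.38 to -0.03), with an edgeR p of 0.0228 that Benjamini-Hochberg adjustment raised to 0.427. It passed without control library 1 (-0.31, Benjamini-Hochberg adjusted p = 0.0365 in edgeR) and stood at -0.10 (adjusted p = 0.918) without control library 2.

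GRB14, the related adaptor that blocks the receptor's kinase in liver, was at 17.2 and 11.98 CPM with the mimic and at 12.8 and 11.5 CPM in the control. A single library, mimic library 1, stood above the other three, and without it the log2 fold change of 0.24 became -0.03. TRIB1, a pseudokinase tied to hepatic lipid control, was at 98.8 and 96.4 CPM with the mimic and at 100.1 and 110.4 CPM in the control (-0.11, 95% interval -0.24 to 0.02). PTPN1, the phosphatase PTP1B that dephosphorylates the receptor, INPPL1, the lipid phosphatase SHIP2, and PHLPP1, which dephosphorylates AKT, had log2 fold changes of 0.02, 0.02 and 0.03, with all 3 intervals between -0.12 and 0.16, and the fold changes of PTPN1 and INPPL1 stood just below 0 with scaling to library totals, as did the median of all genes. INPPL1 ranged from 82.2 to 83.9 CPM over the 4 libraries.

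**Figure D3:**
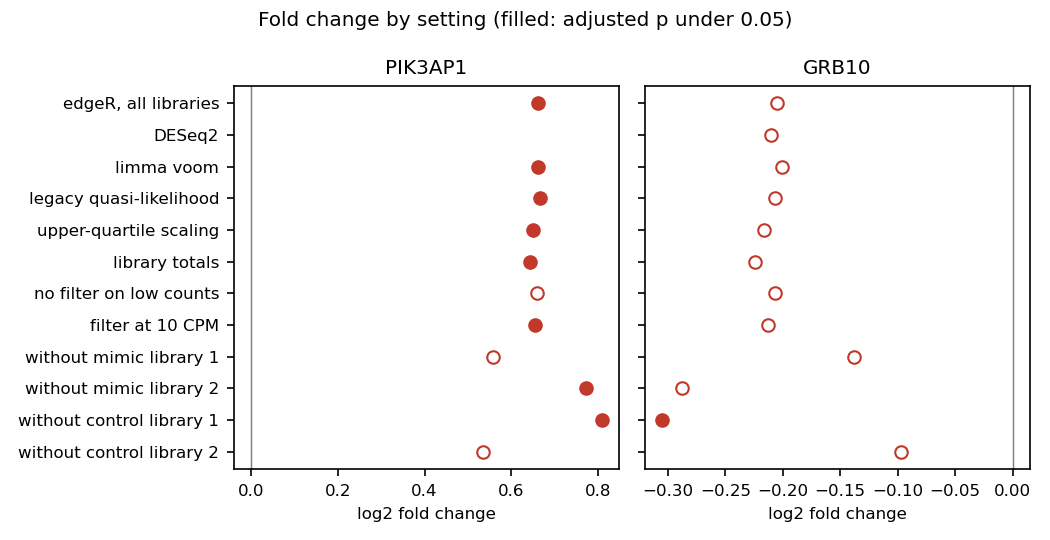
Log2 fold change of PIK3AP1 and GRB10 by analysis setting and with each library left out, filled where the adjusted p was under 0.05. The fit with the column number as a replicate block is not drawn. PIK3AP1 stayed between 0.54 and 0.81 and GRB10 between -0.31 and -0.10, and both moved most when a library was left out; DESeq2 gave PIK3AP1 no adjusted p and has no point there.

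Levels of the panel per length ran over more than 2 orders of magnitude. Per kb of all exons joined, TRIB1 was highest at 24.5 CPM per kb (23.3 to 26.7 over the 4 libraries), then PTPN1 at 18.7, INSR at 14.8, INPPL1 at 12.8 and GSK3B at 12.7. INPPL1 and GSK3B did not differ beyond their ranges. AKT1 followed at 10.8 CPM per kb, and 9 genes from IRS1 at 9.96 to MTOR at 8.5 formed an unbroken run in which each range overlapped the next. At the low end stood PCK1 at 3.04, G6PC1 at 1.35, PIK3R3 at 0.377, PIK3R2 at 0.113, FBP1 at 0.0946 and IRS2 at 0.0887 CPM per kb, with GYS2 at 0. In all, 29 of the 34 genes were at 1 CPM per kb or more, and 21 of the 33 neighbouring pairs in the order had overlapping ranges.

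The order depended on the length used. The principal length divides reads from all exons of a gene by the length of a single annotated transcript. Which length is nearer to the transcripts of these cells was not tested. Per kb of the principal transcript, an alternative chosen after the data were seen, GSK3B was highest at 63.2 CPM per kb, followed by INSR at 32.7, AKT1 at 30.7 and TRIB1 at 27.9. The GSK3A share of the GSK3 level was then 21.5% in place of 42.0%, and the G6PC1 share of its family 7.0% in place of 17.3%. The share of IRS1 was 99.1% by either length. The 6 lowest genes were G6PC1, PIK3R3, PIK3R2, FBP1, IRS2 and GYS2 by either length.

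**Figure D4:**
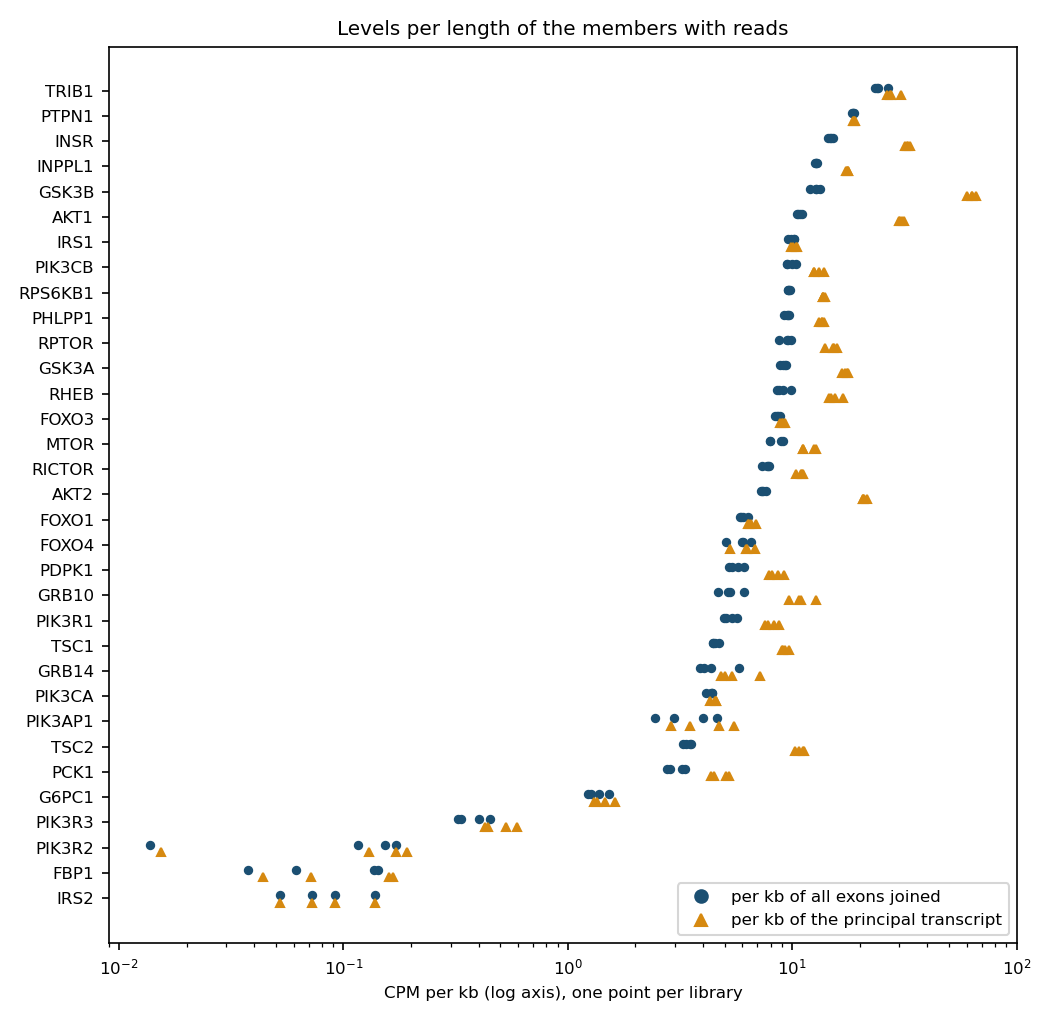
CPM per kb on a log axis in each of the 4 libraries, for the 33 genes with reads, by the length of all exons joined (circles) and of the principal transcript (triangles). TRIB1 leads by the first length and GSK3B by the second, and G6PC1, PIK3R3, PIK3R2, FBP1 and IRS2 are lowest by both.

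Other genes of the pathway were taken from 7 lists, which held 199 genes outside the panel, 175 of them tested. Of these 175, 1 rose, 1 fell and 173 did not pass, where 0.277% of all tested genes rose and 0.0691% fell. Their median log2 fold change was -0.02. Both called genes came from the list of FOXO-regulated transcripts, in which 24 of 26 tested genes did not pass. Over all genes 0.346% were called, and the median of the FOXO-regulated list was 5.1e-05. That list also holds 6 genes of the panel: INSR, IRS2, PCK1, G6PC1, TRIB1 and RICTOR. The lists were chosen with earlier results of these data known, so their counts are no test against the share over all genes. IGFBP1, a secreted binder of insulin-like growth factors whose gene is switched off by insulin, fell with the mimic. It was at 836.2 and 976.0 CPM with the mimic and at 1061 and 1231 CPM in the control (log2 fold change -0.34, 95% interval -0.46 to -0.21; Benjamini-Hochberg adjusted p = 0.00994 in edgeR). BCL6, a transcriptional repressor that FOXO factors induce, rose. It was at 171.4 and 149.3 CPM with the mimic and at 136.0 and 113.2 CPM in the control (log2 fold change 0.36, 95% interval 0.21 to 0.51; Benjamini-Hochberg adjusted p = 0.0291 in edgeR).

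These genes, both known to be induced by FOXO factors, moved in opposite directions, and 13 of the 26 FOXO-regulated transcripts had log2 fold changes above 0 and 13 below. IGFBP1 passed in all 4 fits that left out a library. BCL6 lost it without mimic library 1 (0.26, Benjamini-Hochberg adjusted p = 0.169 in edgeR) and without control library 2 (0.24, adjusted p = 0.139), and DESeq2 called neither (adjusted p = 0.561 for both, Wald test, Benjamini-Hochberg). Antisense genes cover 8.24% of the BCL6 exon sequence.

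**Figure D5:**
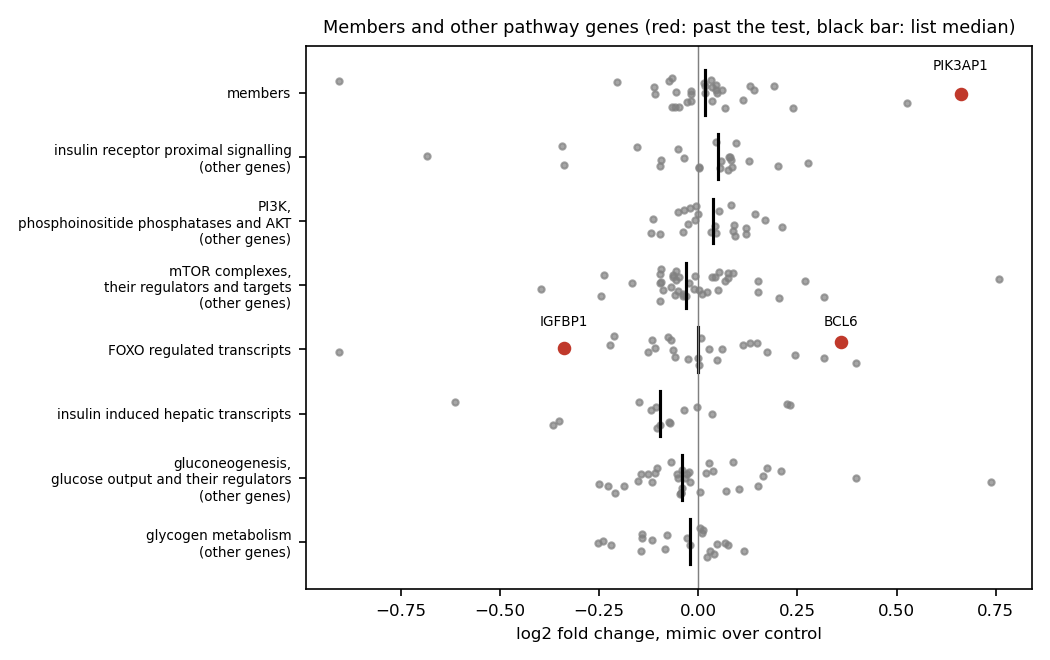
Log2 fold change of each tested gene of the panel and of the 7 lists, with red points for genes past the adjusted threshold and black bars at list medians. Points gather around 0 in every list, and PIK3AP1, IGFBP1 and BCL6 are the genes past the threshold.

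None of the transcripts that insulin is known to induce in liver passed the test. At an unadjusted p under 0.05, 2 were lower and 1 higher, where the share over all tested genes was 9.43%. Of 15 tested genes, 12 had log2 fold changes below 0, where 50.4% of all tested genes lay above 0, and the median was -0.10. The 2 with the smallest p were GPAM, the mitochondrial glycerol-3-phosphate acyltransferase, at 0.23 (95% interval 0.07 to 0.40), and the hexokinase HK2 at -0.12 (-0.21 to -0.03), which lay on opposite sides of 0. Control library 2 stood apart here: the list's median deviation from the mean of all libraries was 0.08 there on the log2 scale, against -0.04 and -0.03 in mimic libraries 1 and 2 and 0.00380 in control library 1. Without control library 2 the median was -0.03.

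In the remaining 5 lists no gene passed in edgeR. Neither limma voom nor DESeq2, among the genes it gave an adjusted p, called any there or among the insulin-induced genes. Among 22 tested genes around the receptor, 2 were higher and 1 lower at an unadjusted p under 0.05, a level that 9.43% of all tested genes reached. The smallest p belonged to SOCS6, a suppressor of cytokine and insulin signalling, at 78.6 and 72.9 CPM with the mimic and 63.7 and 61.1 CPM in the control (log2 fold change 0.28; Benjamini-Hochberg adjusted p = 0.103 in edgeR). The next was IGF1R, the sister receptor of INSR, at 0.13. Among 24 genes of PI3K, lipid phosphatases and AKT, 1 was higher and none lower at an unadjusted p under 0.05. The kinase SGK1, a relative of AKT, did not reach that level, at 0.17 (95% interval -0.02 to 0.36). Of 41 genes around mTOR, none reached an unadjusted p under 0.05, and DEPDC5 and FNIP1 came closest at -0.40 and 0.15.

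Of 35 further genes of glucose production and its regulators, 4 were lower and 1 higher at an unadjusted p under 0.05, again beside 9.43% of all genes. PCK2 was at 94.9 and 91.3 CPM with the mimic and at 106.5 and 108.9 CPM in the control (log2 fold change -0.21; Benjamini-Hochberg adjusted p = 0.185 in edgeR), and PFKFB4, which sets the level of fructose-2,6-bisphosphate, stood at -0.23. Of 21 genes of glycogen metabolism, 1 was higher and 1 lower at an unadjusted p under 0.05, beside 9.43% of all genes: PPP1CC, a catalytic subunit of the phosphatase that activates glycogen synthase, was at 0.12, and GYG2, a glycogen primer, at -0.24. The medians of the 5 lists ran from -0.04 (glucose production) to 0.05 (receptor). Without mimic library 1 the first was -0.00129 and without control library 2 it was -0.00307. The receptor median was 0.0194 and 0.007 in these same fits. Without control library 2 the mTOR and glycogen medians, below 0 with all libraries, were 0.0076 and 0.0381. Without control library 1 more genes passed over all tested genes, some of them in the glucose production, insulin-induced and receptor lists.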

How the data were processed

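RNA of 4 libraries was sequenced after poly(A) selection with a stranded KAPA kit from 500 ng of total RNA, per the labels' protocols. The authors deposited raw counts of reads per Ensembl gene, and FastQC, Bowtie2, STAR and HTSeq with GRCh38.p14 were used per the submitters' processing notes. Versions, annotation release and strand setting were not given in the sources used here. The 5 HTSeq summary entries, 23.1% to 24.1% of each library, were left out. Columns starting NC_ were taken as control and the 2 others as mimic by the column rule given for this series; library numbers are those of the columns.

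Low genes were removed by filterByExpr (count minimum 10, total minimum 15), and the rest were scaled with TMM and tested in edgeR 4.0.16 (R 4.3.3) by glmQLFit with legacy = FALSE and glmQLFTest, with Benjamini-Hochberg adjustment over 14464 genes. On simulated data for this comparison, with 14151 genes in the step, the fit called 52.2% of genes with a true 1.25-fold change, 86.6% at 1.5-fold and 98.5% at 2-fold. These changes were planted only in genes above a floor of mean level, so the shares do not cover scarce genes. The simulated spread followed the trend with level and did not differ from gene to gene otherwise. Alternatives used DESeq2 1.42.0, limma 3.58.1 (voom), other scalings and filters, a block and each library left out. Lengths and overlaps come from GENCODE 29 (GRCh38), which may differ from the authors' annotation. Symbols were found for 62590 of 62655 IDs.

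Every gene of the panel was to be accounted for, with values per library for those that passed and for 1 to 4 per role with the highest level or smallest p, and from each other list those that passed and the 2 with the smallest p. Some results under this rule are not reported here. The genes and lists were chosen with earlier results of these data known. No set test was run.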

Additional observations from a re-analysis of the deposited data

How the results depend on the processing

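Of 395 gene values under 12 other settings, 365 kept their direction and side of the threshold, 9 lost the call, 1 gained it and 20, in 15 genes, changed sign. Except where a setting's own construction shows it (fewer libraries, other genes tested), the cause was not tested. Of the 5210 genes that DESeq2 gave an adjusted p, 30 passed. With no filter on low counts 0 did (1514 at an unadjusted p under 0.05), against 50 in the main fit. The panel and the FOXO-regulated list each had 0 in both. With 1 library left out (the lone library then taken to vary like the other group), 20 (mimic library 1), 120 (mimic library 2), 424 (control library 1) and 22 (control library 2) genes passed. The panel's count then ran from 0 to 2, that of receptor genes from 0 to 1, FOXO-regulated 1 to 3, insulin-induced 0 to 2 and gluconeogenesis 0 to 5.

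Medians of log2 fold changes with 1 library left out ran from 0.00238 to 0.0257 (panel), 0.007 to 0.042 (receptor), 0.0105 to 0.0207 (PI3K, phosphatases and AKT, against 0.0368), -0.0303 to 0.0076 (mTOR), -0.0029 to 0.0188 (FOXO-regulated), -0.118 to -0.0342 (insulin-induced), -0.0647 to -0.00129 (gluconeogenesis) and -0.031 to 0.0381 (glycogen). With upper-quartile scaling they were 0.00412 (panel), -0.0434 (mTOR) and -0.0115 (FOXO-regulated), and with library totals -0.00376, -0.0514 and -0.0193. The 10 CPM filter gave -0.0456 (mTOR) and -0.0094 (FOXO-regulated), no filter 0.0208 (receptor) and -0.00468 (FOXO-regulated), and DESeq2 -0.00299 (FOXO-regulated).

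Single genes that changed sign with a library left out, none of them called, had log2 fold changes from -0.323 to 3.16 (PIK3R2), -0.191 to 0.283 (PIK3R3), -0.154 to 0.028 (PDPK1), -0.0481 to 0.0142 (AKT1), -0.0513 to 0.015 (AKT2), -0.0134 to 0.0746 (TSC1), -0.0867 to 0.017 (TSC2), -0.108 to 0.0824 (MTOR), -0.00362 to 0.0937 (FOXO1), -0.171 to 0.0618 (PCK1), -0.0358 to 0.223 (G6PC1) and -0.0255 to 0.495 (GRB14). Library totals turned RPS6KB1 (-0.00612), PTPN1 (-0.00366) and INPPL1 (-0.00387), as that scaling moved the median of all genes from 0.00109 to -0.0183.

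The labels number the libraries 1 to 4 and so pair none. With the column number as a replicate block, 306 of 14464 genes passed. Among them were 1 receptor, 1 insulin-induced and 3 gluconeogenesis genes, and PIK3AP1 kept its call. The numbers were not taken as pairing because the labels give none. Deviations of same-numbered libraries had a correlation of 0.0234, which over only 2 pairs cannot settle the question. IRS2, PIK3R2, FBP1 and GYS2 had under 20 reads in each library, which limits what can be said of them; why they were low was not tested.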
